A study of Mus musculus with 4 samples.

Results

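Integrins and focal adhesion proteins are the receptors and cytoplasmic proteins by which a cell holds on to its matrix, and their transcripts were followed here in cultured melanocytes, which make the pigment of skin and hair, from mice lacking the aryl hydrocarbon receptor (AhR). The set was a fixed list of 34 genes, chosen with earlier results of these data known. Genes were matched by symbol to the platform annotation, and each was read from its probe set of highest mean signal. Of the 34 genes, 30 had a probe set carrying a single gene symbol, out of 12393 such genes on the array, and 20 were bright enough to be tested among 7436 tested genes. No such probe set was found for Itga1, Tln2, Ptk2 and Nedd9, which were not analysed here. The tested arrays came from 2 AhR knockout mice of the strain AhRtm1Bra, in which exon 2 of Ahr is deleted, and the comparison arrays from 2 wild-type C57Bl/6 mice. All 4 mice were female. Their age is not given in the sources used here. Epidermal cells of the tail were kept for 6 to 8 weeks in a melanocyte medium without serum and passaged at confluence, so the RNA is that of a cultured population and not of skin. Each array holds the cells of 1 mouse, and n is 2 in both groups throughout.

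An integrin is a pair of an alpha and a beta subunit that spans the membrane, binds a matrix protein outside the cell and, through talin, vinculin, alpha-actinin and filamin, the actin cytoskeleton inside it. Clusters of bound integrins form focal adhesions, where ILK, PINCH and parvin make a scaffold and where FAK, Src, paxillin and p130Cas pass the signal on. Melanocytes use such receptors to stay on the basement membrane of the epidermis, whose main proteins are laminins and type IV collagen.

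The arrays were not alike in quality. For Gapdh, the signal of the control probes at the 3' end over that at the 5' end was 1.98 and 11.9 in AhR knockout 1 and 2, against 2.13 and 2.85 in wild type 1 and 2. The actin ratio was 6.999 and 28.0 in AhR knockout 1 and 2, against 7.89 and 8.71 in wild type 1 and 2. AhR knockout 2 therefore stands apart from the other 3 arrays in these controls. Values of each knockout array are given below for many, but not all, of the genes named. The Ahr probe set read 241 and 843 in AhR knockout 1 and 2, against 825 and 874 in wild type 1 and 2. Where its probes lie relative to the deleted exon was not analysed here, so it checks neither label. Cyp1b1, an AhR-induced cytochrome P450, read 14.0 and 23.1 in the knockout arrays, against 1216 and 1410 in the wild-type arrays. It fell by 5.27 on the log2 scale, with an adjusted p of 0.00045 by limma, and was low on both knockout arrays.

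The promoters of the 3 members with the lowest log2 differences are shown first, although none of the 3 passed the test. Each line is the 250 bases before the transcription start given by RefSeq for build GRCm38.p6, and all 3 lie on the plus strand. Capitals mark 3 short motifs searched on both strands: GCGTG, the core that AhR and its partner ARNT recognise, GGAATG, recognised by the TEAD factors that work with YAP, and the CArG box of serum response factor. No match overlapped another in these windows. Itgb1 encodes the beta-1 subunit shared by most matrix-binding integrins (chr8:128685404-128685653), Vcl encodes vinculin (chr14:20929148-20929397), and Lims1 encodes PINCH-1 (chr10:58323297-58323546, the first of its 3 listed starts).
Itgb1: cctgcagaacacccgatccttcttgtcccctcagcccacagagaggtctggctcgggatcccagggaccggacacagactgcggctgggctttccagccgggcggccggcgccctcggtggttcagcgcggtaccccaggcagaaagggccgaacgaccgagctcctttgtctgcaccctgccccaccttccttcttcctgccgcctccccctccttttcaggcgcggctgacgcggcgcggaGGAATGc
Vcl: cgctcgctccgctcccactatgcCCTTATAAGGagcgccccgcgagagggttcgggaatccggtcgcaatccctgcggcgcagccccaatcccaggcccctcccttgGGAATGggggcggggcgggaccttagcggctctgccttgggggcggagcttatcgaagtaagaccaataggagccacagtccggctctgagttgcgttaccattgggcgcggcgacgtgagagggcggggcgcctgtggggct
Lims1: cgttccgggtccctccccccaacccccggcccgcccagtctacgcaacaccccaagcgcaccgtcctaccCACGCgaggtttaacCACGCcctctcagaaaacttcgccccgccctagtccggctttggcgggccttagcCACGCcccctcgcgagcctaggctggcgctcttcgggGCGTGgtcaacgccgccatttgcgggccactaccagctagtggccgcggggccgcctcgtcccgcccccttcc
The Itgb1 window held no GCGTG and 1 GGAATG, 7 bases before the start. The Vcl window held no GCGTG, 1 GGAATG and 1 CArG box, and the CArG box began 227 bases before the start. The Lims1 window held 4 matches to GCGTG, and its other 2 listed starts held none. Over the tested members, RefSeq listed 22 starts for 17 genes. Of these windows 7 held GCGTG, 4 held GGAATG and 1, that of Vcl, held a CArG box. Among all 32851 windows of the same length, GCGTG was found in 28.2%, GGAATG in 12.6% and a CArG box in 1.47%. A match describes these letters only.

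In the comparison of AhR knockout with wild-type melanocytes, the list as a whole did not move one way. Of the 20 tested members 10 were higher and 10 lower in AhR knockout cells, and their median log2 difference was -0.0096, beside 0.0055 for all tested genes. At an adjusted p under 0.05 by limma 0 members passed, where 71 of all tested genes, or 0.955%, did so. Of those genes 15 rose and 56 fell, which is 0.202% and 0.753% of all tested. At an adjusted p under 0.10, 1 member, Itgb1, was lower, where 3.78% of tested genes were lower. At an unadjusted p under 0.05, 4 members were lower and 0 higher, where 12.9% of tested genes were lower and 7.68% higher. These 4 were Itgb1, Lims1, Vcl and Itga6. Signals of both knockout arrays lay below both wild-type arrays for 8 members, where 26.7% of tested genes did so, and above both for 4, where 28.7% did so. The 4 include Itga9, which passed the signal filter through its knockout arrays. Every difference given is that of log2(signal + 16), knockout minus wild type, which understates the change of dim genes, and p-values are adjusted over all tested genes. The arrays carry no count depth, and their number limits the precision.

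**Figure D1:**
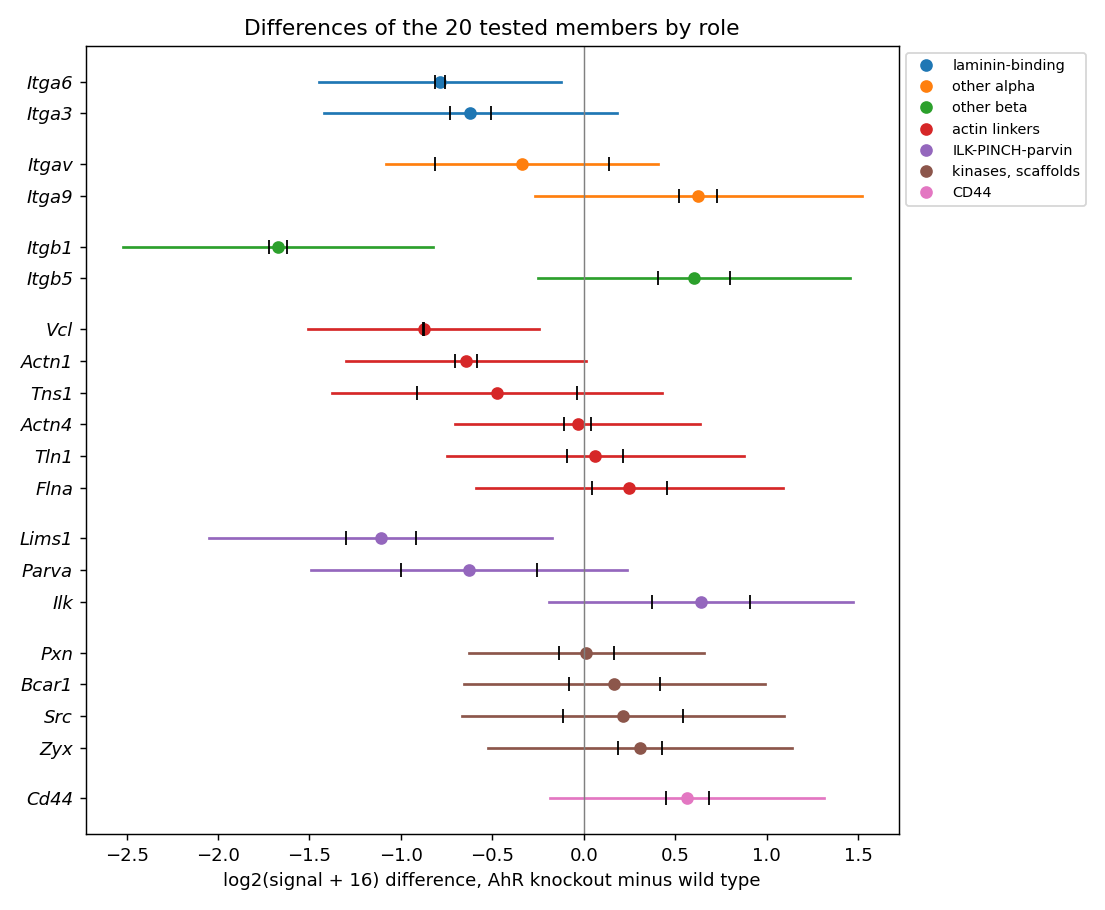
Log2 difference of the 20 tested members, AhR knockout minus wild type, grouped by role; points are the limma estimate, lines its 95% interval, and the short black ticks each knockout array against the wild-type mean. Itgb1 lies farthest left at -1.67, and its 2 ticks nearly coincide.

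Among the beta subunits, Itgb1 had the lowest difference of the 20 tested members. Itgb1 read 412 and 383 in AhR knockout 1 and 2, against 1054 and 1606 in wild type 1 and 2. Both knockout arrays were low and close to each other, and the groups did not overlap. The log2 difference was -1.67 ± 0.38 (SE, 95% interval -2.52 to -0.82), or 3.19-fold lower in knockout cells, with an adjusted p of 0.067 by limma, short of the threshold. Against the wild-type mean, AhR knockout 1 gave -1.62 and AhR knockout 2, the array of high control ratios, gave -1.72. With 1 knockout array left out, Itgb1 passed the threshold either way, with adjusted p = 0.0014 without AhR knockout 1 and 0.0028 without AhR knockout 2. Without wild type 2, the higher wild-type array, the adjusted p was 0.748, and over all alternatives it ran from 6.39e-05 to 0.748. In the fits without a knockout array the lone knockout array is assumed to vary like the wild-type arrays. Far more genes were called in them: 2 members were lower without AhR knockout 1, where 11.1% of tested genes were lower, and 4 without AhR knockout 2, where 10.8% were.

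The mean log2 signal of all 6 probe sets of Itgb1 was lower in knockout cells, but the 4 dimmer ones read at most 80.7 on any array, 2 of them overlapped between groups, and their sign adds little. The second brightest, which the maker's name marks as shared by transcripts of the same gene, read 278 and 117 in AhR knockout 1 and 2, against 691 and 876 in wild type 1 and 2, a log2 difference of -2.00. Those 4 probe sets had log2 differences between -1.03 and -0.22.

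Itgb5, the beta-5 subunit that pairs with the alpha-v subunit to bind vitronectin, stood on the other side. Itgb5 read 656 and 865 in AhR knockout 1 and 2, against 589 and 409 in wild type 1 and 2. Both knockout arrays were above both wild-type arrays, by a small margin over wild type 1. Its log2 difference was 0.60 ± 0.38 (95% interval -0.25 to 1.46) with adjusted p = 0.39 by limma. The 3 other probe sets of Itgb5 were also higher, by log2 0.17 to 0.88. The maker's name marks some of them as able to match other transcripts.

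**Figure D2:**
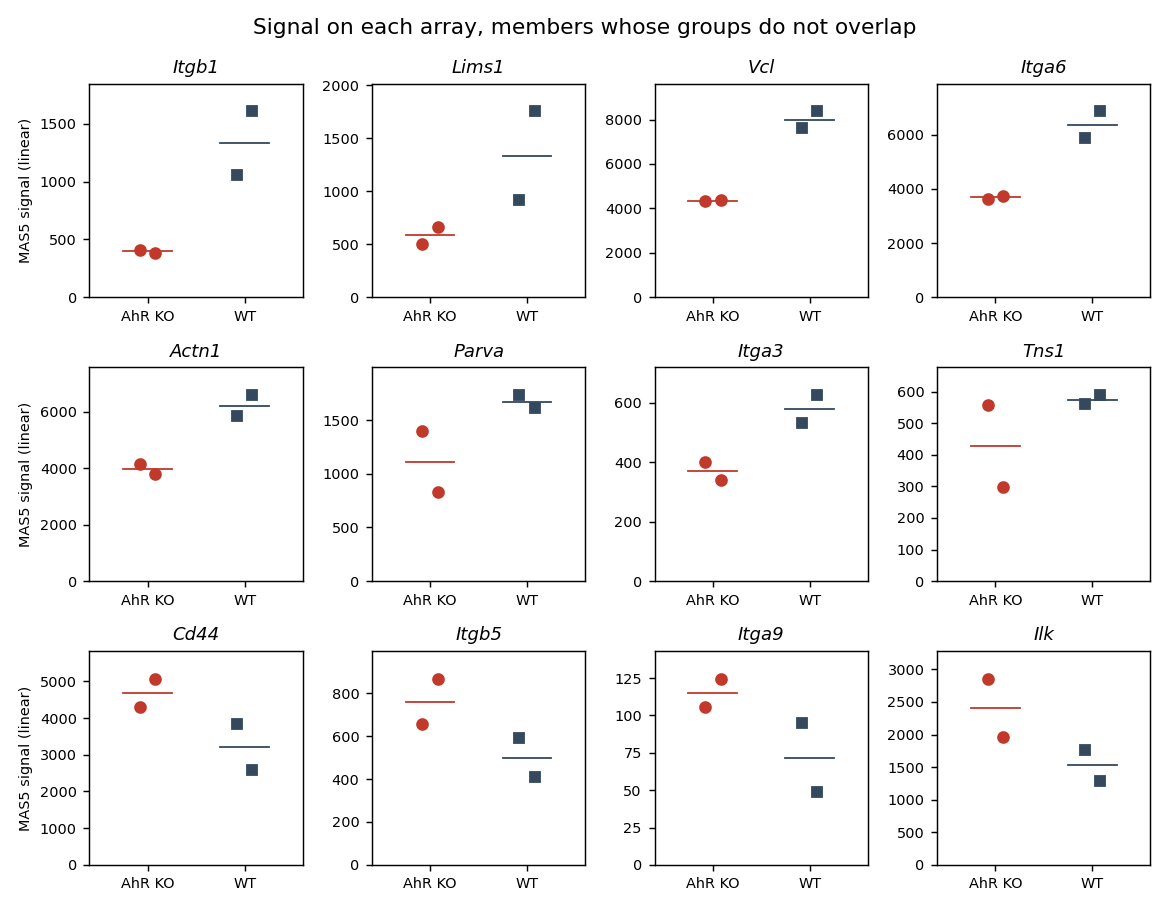
MAS5 signal on a linear axis for the 12 tested members whose groups do not overlap, AhR knockout arrays as circles and wild-type arrays as squares, with a line at each group mean (n = 2 each). For Itgb1, Vcl and Itga6 the knockout arrays lie close together and well below the wild-type arrays, while Tns1 separates only by the gap between 559 and 560.3.

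The 2 tested alpha subunits that bind laminin were lower in knockout cells. Itga6, the alpha-6 subunit of laminin receptors on basal cells, read 3612 and 3750.2 in AhR knockout 1 and 2, against 5889 and 6854 in wild type 1 and 2. The groups did not overlap and the 2 knockout arrays were nearly equal. Itga6 differed by -0.78 ± 0.30 (95% interval -1.45 to -0.12), with an unadjusted p of 0.025 and an adjusted p of 0.18 by limma. The dimmer Itga6 probe set read 280 and 184 in AhR knockout 1 and 2, against 593 and 589 in wild type 1 and 2, a log2 difference of -1.32. Itga3, the alpha-3 subunit of another laminin receptor, read 401 and 341 in the knockout arrays, against 533 and 626 in the wild-type arrays. The difference was -0.62 ± 0.36 with adjusted p = 0.35 by limma, and both knockout arrays lay below both wild-type arrays. Of 2 dim Itga3 probe sets, 1 had a difference of -1.43 and 1 of 0.13. Itgb4 and Itga7, the other laminin-binding subunits of the list, were below the signal filter, and dim Itga7 was higher on both knockout arrays.

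The remaining tested alpha subunits did not share a direction. Itgav, the alpha-v subunit of vitronectin receptors, read 8015 and 15472 in AhR knockout 1 and 2, against 12255 and 16177 in wild type 1 and 2. AhR knockout 1 alone lay below the wild-type arrays and AhR knockout 2 between them. Itgav differed by -0.34 ± 0.33 (95% interval -1.08 to 0.41) with adjusted p = 0.57 by limma. AhR knockout 1 gave -0.81 and AhR knockout 2 gave 0.14, and without AhR knockout 2 the limma adjusted p was 0.0084. Over all alternatives it lay between 0.0084 and 0.9997, the highest without wild type 2. Itga9, the alpha-9 subunit of a tenascin and VCAM-1 receptor, read 106 and 124 in the knockout arrays, against 94.7 and 48.6 in the wild-type arrays. Its wild-type mean of 71.7 lay below the filter level of 81.1 and its knockout mean of 114.9 above it. Itga9 thus passed the signal filter through its knockout arrays. The difference was 0.63 ± 0.40 with adjusted p = 0.39 by limma. Its other probe sets pointed the opposite way: the brighter of them read 51.6 and 11.5 in AhR knockout 1 and 2, against 82.2 and 80.9 in wild type 1 and 2, a difference of -1.18. The direction of Itga9 therefore depends on the probe set.

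Among the 6 tested actin linkers, both knockout arrays lay below both wild-type arrays for Vcl, Actn1 and Tns1, and the groups overlapped for the other 3. Vcl, which encodes vinculin, the protein that strengthens the bond of talin to actin, read 4338 and 4360 in AhR knockout 1 and 2, against 7629 and 8363 in wild type 1 and 2. The 2 knockout values were almost the same and the groups were far apart. The log2 difference was -0.87 ± 0.28 (95% interval -1.51 to -0.24), 1.83-fold lower, with an unadjusted p of 0.012 and an adjusted p of 0.14 by limma. AhR knockout 1 gave -0.88 and AhR knockout 2 gave -0.87. The limma adjusted p was 0.023 without AhR knockout 1 and 0.022 without AhR knockout 2, but 0.984 without wild type 2. Over all alternatives it lay between 0.022 and 0.984. Actn1, alpha-actinin-1, which bundles actin at the adhesion, read 4135 and 3808 in the knockout arrays, against 5849 and 6579 in the wild-type arrays. The groups did not overlap, and the difference of -0.64 ± 0.29 had an unadjusted p of 0.054 and an adjusted p of 0.25 by limma. A dimmer Actn1 probe set read 33.9 and 20.5 in the knockout arrays, against 68.8 and 107 in the wild-type arrays, a difference of -1.26.

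Actn4, the related alpha-actinin-4, read 4062 and 4487 in AhR knockout 1 and 2, against 4540 and 4207 in wild type 1 and 2. The groups overlapped, and the difference was -0.034 with a 95% interval of -0.71 to 0.64. Tln1, talin-1, which activates integrins by binding the beta tail, differed by 0.063 (95% interval -0.75 to 0.88) and also overlapped. A dim second Tln1 probe set read 89.6 and 142 in the knockout arrays, against 47.7 and 42.3 in the wild-type arrays, a difference of 1.08 that the brighter probe set did not show. Flna, filamin A, an actin cross-linker that also binds integrin tails, differed by 0.25 (95% interval -0.59 to 1.09). Tns1, tensin-1, of mature adhesions, read 559 and 298 in the knockout arrays, against 560.3 and 589 in the wild-type arrays. Its difference of -0.48 came almost wholly from AhR knockout 2, at -0.91, with -0.039 in AhR knockout 1. It was thus carried by the array of high control ratios, and the part of RNA quality in it was not tested.

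ILK, PINCH-1 and alpha-parvin form a complex at the adhesion, and their transcripts did not share a direction. Lims1, which encodes PINCH-1, read 506 and 666 in AhR knockout 1 and 2, against 919.9 and 1754 in wild type 1 and 2. Both knockout arrays were below both wild-type arrays, which themselves lay far apart. The log2 difference was -1.11 ± 0.42 (95% interval -2.05 to -0.17), 2.16-fold lower, with an unadjusted p of 0.025 and an adjusted p of 0.18 by limma. Without AhR knockout 2 it was -1.30 with an adjusted p of 0.023 by limma. Without wild type 2, the highest array, it was -0.65 with an adjusted p of 0.9997, and over all alternatives the adjusted p lay between 0.014 and 0.9997. The maker's name of this probe set marks it as able to match transcripts of several genes, and the share of such signal was not analysed here. The probe sets used for Parva, Pxn, Src and Bcar1 carry the same mark. The 2 other Lims1 probe sets were lower too, by -0.73 and -0.59.

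Parva, alpha-parvin, read 1394 and 827 in AhR knockout 1 and 2, against 1730.3 and 1609 in wild type 1 and 2. Its difference of -0.63 ± 0.39 had an adjusted p of 0.38 by limma, and AhR knockout 1 gave -0.26 and AhR knockout 2 gave -0.998. Ilk, integrin-linked kinase, the centre of the complex, was on the other side. Ilk read 2849 and 1964 in AhR knockout 1 and 2, against 1767 and 1289 in wild type 1 and 2, with no overlap of the groups. The difference was 0.64 ± 0.37 (95% interval -0.19 to 1.47) with adjusted p = 0.35 by limma. The difference between Ilk and Lims1 in their response was not tested. Parvb, beta-parvin, was below the signal filter.

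The kinase and scaffold genes overlapped between groups in every tested case. Pxn, paxillin, the docking protein of FAK and Src, read 7176 and 5839 in AhR knockout 1 and 2, against 6841 and 6003 in wild type 1 and 2, a difference of 0.015 with a 95% interval of -0.63 to 0.66. Its 2 other probe sets were lower, by -0.49 and -0.50. Src, the tyrosine kinase, differed by 0.21 (95% interval -0.67 to 1.09), with 0.54 in AhR knockout 1 and -0.11 in AhR knockout 2. Bcar1, which encodes p130Cas, a stretch-sensitive substrate of Src, differed by 0.17 (95% interval -0.66 to 0.99), and its second probe set by -0.19. Zyx, zyxin, which gathers at adhesions under tension, differed by 0.31 (95% interval -0.52 to 1.14) and was higher in both of its probe sets. These intervals leave room for changes in either direction.

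Cd44, the hyaluronan receptor that links the cell surface to actin, read 4300.3 and 5061 in AhR knockout 1 and 2, against 3838 and 2576 in wild type 1 and 2. The groups did not overlap. The log2 difference was 0.57 ± 0.33 (95% interval -0.18 to 1.32) with adjusted p = 0.36 by limma, and a dimmer probe set was higher by 0.28.

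**Figure D3:**
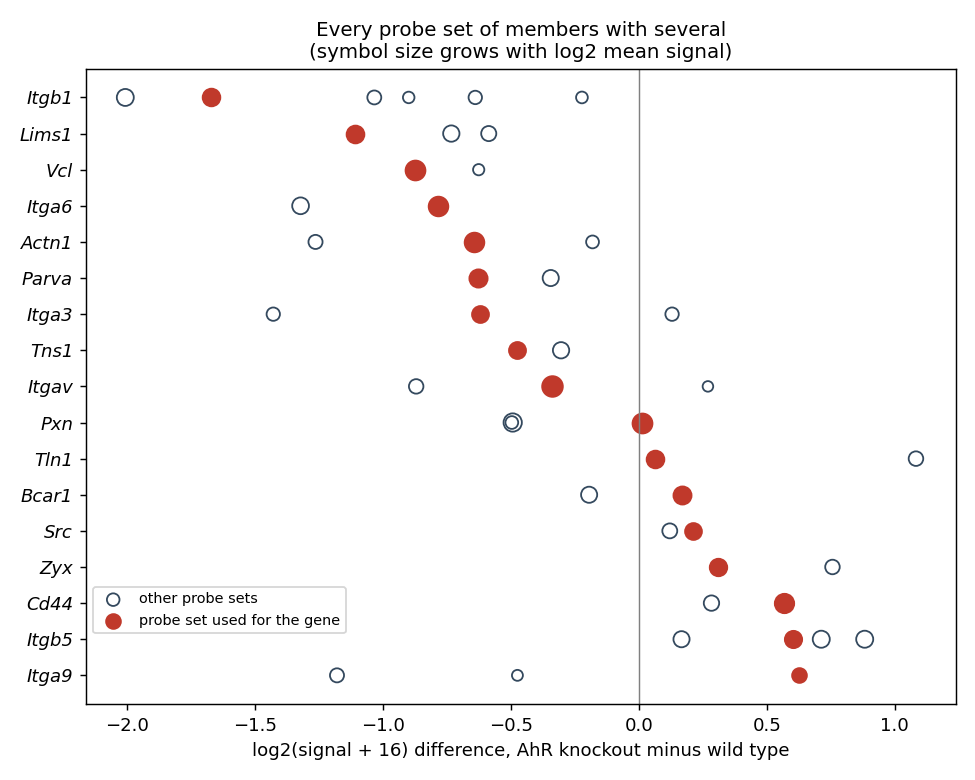
Log2(signal + 16) difference of every probe set of the 17 tested members with more than 1, filled where the probe set stands for the gene and open otherwise, with symbol size growing with mean signal. All probe sets of Itgb1, Lims1, Vcl, Itga6, Actn1, Parva and Tns1 lie left of 0, and those of Itga9 lie on both sides. The second Vcl probe set read at most 17.0 on any array, so its side adds little.

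Across the set, the probe sets of a gene mostly agreed in sign. The 30 measured members had 63 probe sets, and 17 tested members had more than 1. For 12 of the 17 every other probe set had the sign of the one used. Of the 5 that did not, Bcar1, Itga3, Itga9, Itgav and Pxn, only Itga9 had an opposite probe set with a difference of 0.5 or more. Among the 12 that agreed, some of the other probe sets were dim, and their sign adds little. The second Vcl probe set read at most 17.0 on any array, and the dimmest of Actn1 at most 31.1.

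The 10 members below the filter were dim on every array, with no signal above 93.2, and no fold is given for them. Itga4, the alpha-4 subunit that binds VCAM-1 and fibronectin, read 2.23 and 30.7 in AhR knockout 1 and 2, against 57.1 and 68.9 in wild type 1 and 2. Itgb6, an epithelial beta subunit that activates latent TGF-beta, read 50.8 and 36.2 in the knockout arrays, against 16.6 and 15.1 in the wild-type arrays. Itga7, a laminin receptor of muscle, read 56.8 and 62.7 in the knockout arrays, against 40.3 and 33.8 in the wild-type arrays. Itga2, a collagen receptor subunit, read 69.5 and 40.1 in the knockout arrays, against 23.2 and 31.0 in the wild-type arrays. In these 4 genes the groups did not overlap, as in 26.7% of tested genes that were lower and 28.7% that were higher. The share among genes below the filter was not analysed, and at such dim signals the separation says little. The groups overlapped in the other 6, which were Itga5, the fibronectin receptor subunit, Itga8, Itgb3, Itgb4, Itgb7 and Parvb. Itgb4, the hemidesmosome subunit of basal keratinocytes, read 13.8 and 15.8 in the knockout arrays, against 5.29 and 20.5 in the wild-type arrays.

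**Figure D4:**
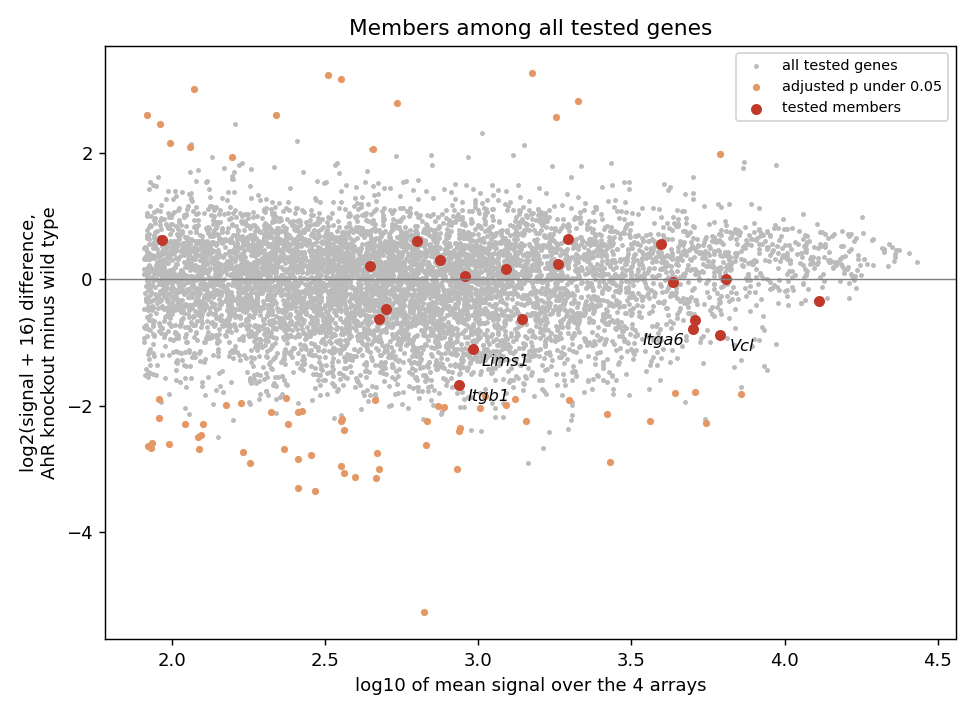
Log2(signal + 16) difference against the log10 mean signal of the 7436 tested genes in grey, the 71 genes past an adjusted p of 0.05 in orange and the 20 tested members in red. Itgb1, at -1.67, is the lowest of the members, and the 4 members with an unadjusted p under 0.05 are named.

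Among genes of adhesion sites outside the set, more were lower than higher. Of 65 such genes, 51 had a probe set and 39 were tested. Of these 28 were lower and 11 higher (median -0.42), beside 3695 lower and 3741 higher among all tested genes. By limma 0 passed; without adjustment 10 of the lower and 3 of the higher genes had a p under 0.05, where 12.9% of all tested genes were lower and 7.68% higher by that measure. By array the median was -0.054 for AhR knockout 1 and -0.76 for AhR knockout 2, which had the high control ratios, and the part of RNA quality in this was not tested. Lpp, a zyxin-family protein of adhesions, read 363 and 629 in AhR knockout 1 and 2, against 1644 and 4193 in wild type 1 and 2. The difference was -2.42 ± 0.50 with adjusted p = 0.056. Enah, which extends actin filaments at adhesions, read 31.9 and 52.9 in the knockout arrays, against 169 and 380.0 in the wild-type arrays. The difference was -2.24 ± 0.45 with adjusted p = 0.054 by limma. Its knockout signals lay below the filter level of 81.1, so Enah passed the signal filter through its wild-type arrays. Ptpn12, a phosphatase that acts on p130Cas, read 2068 and 1977 in the knockout arrays, against 4465 and 5989 in the wild-type arrays, and differed by -1.35 with adjusted p = 0.075. Pdlim5, which binds alpha-actinin, also differed by -1.35, with adjusted p = 0.089. Sorbs3, which encodes vinexin, a partner of vinculin, was higher, with 527 and 572 in the knockout arrays, against 247 and 137 in the wild-type arrays, and differed by 1.50 with adjusted p = 0.091. None of the 10 leukocyte, platelet and other integrin subunits outside the set passed the signal filter, and 6 of them had a probe set.

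Most tested ligands of these receptors were lower in knockout cells. Of 23 listed ligands, 20 had a probe set and 13 were tested. Of these 11 were lower and 2 higher, 8 and 0 of them at an unadjusted p under 0.05 by limma. The shares over all tested genes were 12.9% lower and 7.68% higher by that measure. The median of the tested ligands was -1.06, with -0.87 for AhR knockout 1 and -1.24 for AhR knockout 2. Vcam1, the cell surface ligand of the alpha-4 and alpha-9 integrins, fell. Vcam1 read 9.09 and 13.9 in AhR knockout 1 and 2, against 139 and 179 in wild type 1 and 2, a difference of -2.67 ± 0.38 with adjusted p = 0.022 by limma. It was the single ligand past the threshold, where 0.753% of all tested genes fell. With knockout signals this dim it passed the signal filter through its wild-type arrays. The call was not made without the filter (adjusted p = 0.187) or with the mean of its probe sets (adjusted p = 0.0526). Lama4, a laminin chain of vessel and fat basement membranes, read 1757 and 1404 in the knockout arrays, against 4326 and 4624 in the wild-type arrays, and differed by -1.50 with adjusted p = 0.065. Lamb1, the common laminin beta chain, differed by -1.51 with adjusted p = 0.078. Tnc, tenascin C, differed by -2.37 with adjusted p = 0.081, and Thbs1, thrombospondin 1, by -2.67 with adjusted p = 0.057. AhR knockout 1 and 2 gave -1.42 and -3.32 for Tnc, and -1.73 and -3.61 for Thbs1. Both genes were thus lower in AhR knockout 2, which had the high control ratios, and the part of RNA quality in this was not tested. Fn1, fibronectin, read 15158 and 14008 in the knockout arrays, against 17028 and 18610.4 in the wild-type arrays. The groups did not overlap, but the difference of -0.29 was small, with adjusted p = 0.48.

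**Figure D5:**
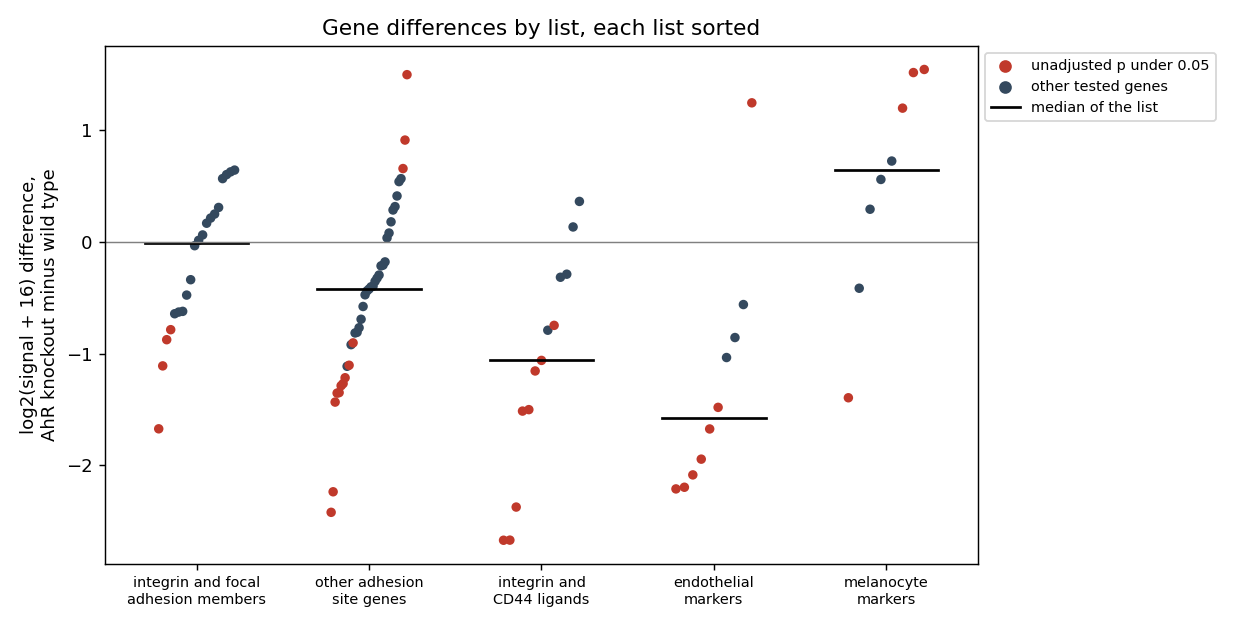
Log2(signal + 16) difference of each tested gene, sorted within its list, with the list median as a black line and red points for an unadjusted p under 0.05. The members centre on 0, the ligands and endothelial markers lie mostly below it, and the melanocyte markers mostly above it.

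Marker levels of the cells in culture differed as well, with 0 melanocyte and 0 endothelial markers past the threshold by limma. All 8 melanocyte markers with a probe set were bright enough to test, and their summed signal was 80043 and 106428 in AhR knockout 1 and 2, against 68496 and 54835 in wild type 1 and 2. Of these 6 were higher and 2 lower, 3 and 1 of them at an unadjusted p under 0.05, where the shares over all tested genes were 7.68% and 12.9%. Tyr, the tyrosinase of pigment synthesis, differed by 1.20 with adjusted p = 0.10 by limma. The 2 lower markers were Kit and Mitf. Kit read 558 and 273 in the knockout arrays, against 1235 and 899.8 in the wild-type arrays. It differed by -1.39 with adjusted p = 0.13 by limma, and Mitf by -0.41 with adjusted p = 0.52. All 10 endothelial markers were tested, 9 lower and 1 higher, 6 and 1 of them at an unadjusted p under 0.05, where the shares over all tested genes were 12.9% and 7.68%. The median was -1.58, with -0.80 for AhR knockout 1 and -2.13 for AhR knockout 2. Their summed signal was 18451 and 7432 in the knockout arrays, against 22634 and 24604 in the wild-type arrays. Cd34, a surface protein of vessel cells, read 181 and 62.4 in the knockout arrays, against 568 and 538 in the wild-type arrays, and differed by -2.19 with adjusted p = 0.057 by limma. Emcn, endomucin of vessel cells, read 3321 and 1041 in the knockout arrays, against 7391 and 10176 in the wild-type arrays. Cldn5, the 1 higher endothelial marker, read 4688 and 2845 in the knockout arrays, against 1510 and 1555 in the wild-type arrays. It differed by 1.24 with adjusted p = 0.11 by limma. Endothelial cells also carry beta-1 and alpha-6 integrins, and the part of these cells in the values of Itgb1, Itga6, Vcl and Lims1 was not tested. In bulk RNA, fewer cells of a type and less RNA per cell cannot be told apart.

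The other marker lists were smaller. Fibroblast and mural markers summed to 3489 and 3985 in AhR knockout 1 and 2, against 4035 and 3229 in wild type 1 and 2. Of 5 tested, 3 were higher and 2 lower (median 0.39). Cspg4, one of the higher ones, read 683 and 667 in the knockout arrays, against 223 and 168 in the wild-type arrays. It differed by 1.72 with adjusted p = 0.057 by limma. Col3a1 alone passed, where 0.753% of all tested genes fell, with a difference of -2.29 and an adjusted p of 0.041 by limma. Its knockout mean of 72.8 lay below the filter level of 81.1, so it passed the filter through its wild-type arrays. By limma, Col3a1 did not pass without the filter (adjusted p = 0.192) or with quantile normalization (adjusted p = 0.057). Nor did it pass without wild type 2, where the difference was -2.17. With the top 40% filter it was not tested. Keratinocyte markers, from cells rich in alpha-6 and beta-4 integrin, summed to 1929 and 233 in AhR knockout 1 and 2, against 393 and 442 in the wild-type arrays. The sum was thus high in AhR knockout 1 alone, but the markers were not alike. Of 4 tested, 3 were higher and 1 lower. The 3 higher ones, Krt5, Krt14 and Krt6a, read above the filter level of 81.1 only on AhR knockout 1. They thus passed the filter through that array, and their direction adds little. Against the wild-type mean, AhR knockout 2 gave 0.22 for Krt5, -0.41 for Krt14 and 0.25 for Krt6a. The lower one, Perp, read 293 and 83.3 in AhR knockout 1 and 2, against 267 and 304 in the wild-type arrays. Leukocyte markers summed to 3877 and 3396 in the knockout arrays, against 1792 and 1749 in the wild-type arrays. Of 4 tested, 2 were higher and 2 lower, and most of the sum in knockout cells was Lyz2, the lysozyme of myeloid cells, with 2628 and 2776 in the knockout arrays, against 669 and 881 in the wild-type arrays (adjusted p = 0.054 by limma). Schwann and glial markers summed to 7157 and 8916 in the knockout arrays, against 5944 and 5145 in the wild-type arrays. Of 3 tested, 1 was higher and 2 lower (median -0.14), and the higher one was S100b, with 2867 and 5682 in the knockout arrays, against 899.6 and 1387 in the wild-type arrays (adjusted p = 0.069 by limma). No marker of any list was at 0 on an array, and the part of these cells in the members' values was not tested.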

How the data were processed

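Amplified, biotin-labelled RNA of 4 cultures was read on Affymetrix arrays of 1 colour, as the labels' protocols state. The authors deposited MAS5 signal intensity on a linear scale, per the submitters' processing notes, and all arrays share a trimmed mean of 500.2 to 500.3 over the middle 96% of probe sets. Of 22690 probe sets, 20380 had a single gene symbol, updated through gene identifiers to RefSeq, and 0 columns were without a sample. Genes in the top 60% by mean signal, at 81.1 or more, were tested on log2(signal + 16) with limma 3.58.1 in R 4.3.3 (lmFit, eBayes with a trend, Benjamini-Hochberg over all tested genes, two-sided). An exact permutation of 2 against 2 arrays cannot give a p below 0.333, so p-values rest on limma. Titles number the arrays 1 and 2 in both groups without stating a pairing, so no block was used. The model was tested on simulated arrays.

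The members and lists were chosen with earlier results of these data known. Full values were given for members with an unadjusted p under 0.05 or probe sets that disagreed by 0.5 or more. At least the difference was given for the other tested members. Members below the filter were given as signals or only by whether the groups overlapped. Named outside the set were up to 5 genes of each related list and up to 3 of each marker list. These were taken from those with the smallest p. Also named were Fn1 and the markers Kit, Mitf, Cldn5 and Perp, which went against most of their list. Fn1 and these markers were chosen after their values were seen. Alternatives covered scaling, pseudocount, filter, probe sets, variance model, block, threshold and each array left out; ranking the filter by mean log2 signal was chosen after seeing the data. Figures used matplotlib 3.10.9 in Python 3.11.15.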

Additional observations from a re-analysis of the deposited data

How the results depend on the processing

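The 20 tested members gave 299 values under the alternatives, of which 274 kept their direction and side of the threshold, 9 passed it and 16 changed sign without passing. Itgb1, Lims1, Vcl, Itga6, Actn1, Parva, Itga3 and Tns1 stayed lower, and Ilk, Cd44, Itgb5 and Zyx higher, in every alternative. The count of members called was 0 in most settings, 3 with the replicate number as a block (Itgb1, Lims1 and Vcl, beside 13% of tested genes that were lower), 1 at an adjusted p under 0.10 (Itgb1, beside 3.78% that were lower), and 0 to 4 with an array left out. It was 4 without AhR knockout 2 (Itgb1, Lims1, Vcl and Itgav) and 2 without AhR knockout 1 (Itgb1 and Vcl). Same-numbered arrays had deviations correlated at 0.353 across genes, but 2 pairs cannot show a pairing.

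Over all tested genes, 71 calls became 25 with quantile normalization, 43 with a pseudocount of 1, 1 without the filter, 20 with the top 40% filter, 25 with every probe set, 1406 with the block, 364 at an adjusted p under 0.10, and 20 to 1360 with an array left out (152 without wild type 1, 20 without wild type 2, 1360 without AhR knockout 1 and 1031 without AhR knockout 2). Ranking the filter by mean log2 signal gave 51 calls and 0 members. With equal array medians 23 rose and 45 fell. The members' median was -0.15 with quantile normalization, 0.089 with equal medians, 0.039 without the filter, -0.32 with the mean of probe sets, and -0.10 to 0.065 with an array left out. Signs changed for Pxn (-0.17 with quantile normalization, -0.32 with the mean of probe sets), Actn4 (0.064 with equal medians), Bcar1 (-0.013) and Itga9 (-0.34 with the mean of probe sets). With an array left out the ranges were -0.13 to 0.16 for Pxn, -0.11 to 0.038 for Actn4, -0.081 to 0.42 for Bcar1, -0.049 to 0.55 for Flna, -0.11 to 0.54 for Src, -0.090 to 0.22 for Tln1 and -0.81 to 0.14 for Itgav. Causes of these changes were not tested. No detection call was used here, so members near background are given only as signals or by whether the groups overlapped.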
